A study of Rattus norvegicus with 5 samples.

Results

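Tlr2, Tlr4, Myd88 and Nfkbia, genes of the Toll-like receptor and NF-kappaB pathway, were examined in microglia of young rats whose mothers had been given adenovirus during pregnancy. The genes were taken by name, with no threshold on their values, as 4 of the 35495 features of the deposited tables (Tlr2 ENSRNOG00000009822, Tlr4 ENSRNOG00000010522, Myd88 ENSRNOG00000013634 and Nfkbia ENSRNOG00000007390). Timed-pregnant Sprague Dawley dams received a tail vein injection on gestational day 8.5. The adenovirus carried a full-length human CYP11A1 cDNA in the CYP11A1 group and no CYP11A1 cDNA in the control group, and both constructs held a CMV promoter and green fluorescent protein. The offspring themselves were not injected. Steroid hormone synthesis begins with CYP11A1, a mitochondrial enzyme that turns cholesterol into pregnenolone. Microglia were isolated on Percoll gradients from the brains of male offspring (aged 3 months per the labels and 6 to 8 weeks per the study's methods), and 2 control libraries (control 1 and control 3) and 3 CYP11A1 libraries (CYP11A1 1, 2 and 3) were analysed here. Nothing in the labels ties a library to a dam or litter, so that the p-values measure only the spread between these libraries.

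Toll-like receptors recognise molecules of microbes and of damaged cells. Tlr2 senses bacterial lipoproteins at the cell surface, and Tlr4, with its partner proteins, senses lipopolysaccharide. Both pass the signal to the adaptor Myd88, from which a kinase cascade reaches the IkappaB kinase complex. Nfkbia encodes IkappaB-alpha, which holds NF-kappaB in the cytoplasm until it is phosphorylated and degraded, and the gene is itself a target of NF-kappaB, which closes a negative feedback loop. In the brain, microglia are the main cells with Tlr4, and Nfkbia is known to be induced quickly by inflammatory stimuli.

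The libraries held 9623896 to 13624545 counts. CYP11A1 3 and control 1 had the most counts but the fewest features detected, 10766 and 12042 against 14953 to 16969 in the other 3. The 10 most counted features took 37.5% of the counts in CYP11A1 3 and 50.1% to 65.4% in the others. The tables name features by identifier, and of these 0 could be paired with a symbol here, beyond the 4 genes above. Cell type markers, immediate early genes, the other genes of the pathway and Cyp11a1 were therefore not analysed here, and the identity of the cells was not checked in these counts. The study describes Cd11b staining of the isolated cells, in which most but not all were positive for this microglial and macrophage marker. In RNA of a whole cell preparation, fewer cells of a type and less RNA per cell cannot be told apart.

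Tlr4 and Tlr2 were the genes that differed most between libraries, and in both the library labelled CYP11A1 3 stood above all others. The level of Tlr4 was 54.2 FPKM (counts scaled by feature length and library total) in control 1 and 21.4 in control 3. In CYP11A1 1, 2 and 3 it was 9.92, 14.8 and 229.7 FPKM. The CYP11A1 libraries thus lay on either side of the controls, with CYP11A1 3 at 4.24 times the next library and CYP11A1 1 and 2 below both controls. In counts, Tlr4 had 2467 and 689 in control 1 and 3 and 366, 518 and 10159 in CYP11A1 1, 2 and 3. As CPM, which scales counts by the library total alone, this was 33.1 in CYP11A1 1 (95% Wilson interval 29.9 to 36.7) and 767.4 in CYP11A1 3 (752.6 to 782.4). The intervals cover the counting error of reads only. As the reads carry no molecular identifiers, copies of 1 molecule count as separate reads, and the intervals may be too narrow. The difference between libraries of the same group was far larger than this error.

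The level of Tlr2 was 6.62 FPKM in control 1 and 6.61 in control 3, a difference smaller than counting error (234 and 165 counts, or 17.2 and 17.1 CPM). In CYP11A1 1, 2 and 3 it was 5.73, 1.03 and 38.4 FPKM. The 2 controls and CYP11A1 1 were thus close together, whereas CYP11A1 2 was the lowest and CYP11A1 3 the highest of all libraries. The lowest value rests on 28 counts (2.66 CPM, Wilson interval 1.84 to 3.85) and the highest on 1318 (99.6 CPM, 94.3 to 105.1). The highest level was 37.4 times the lowest for Tlr2 and 23.2 times for Tlr4, and in each gene both extremes belonged to the CYP11A1 group.

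In both groups Tlr4 was a well expressed gene. Only 406 features had a higher FPKM than Tlr4 in CYP11A1 3 and 895 in control 1, against 1249 to 1782 in the other libraries. Tlr2 was exceeded by 1213 features in CYP11A1 3 and by 8560 in CYP11A1 2, and by 2236 to 2626 in the remaining 3. Tlr4 exceeded Tlr2 per length in 5 of 5 libraries.

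**Figure D1:**
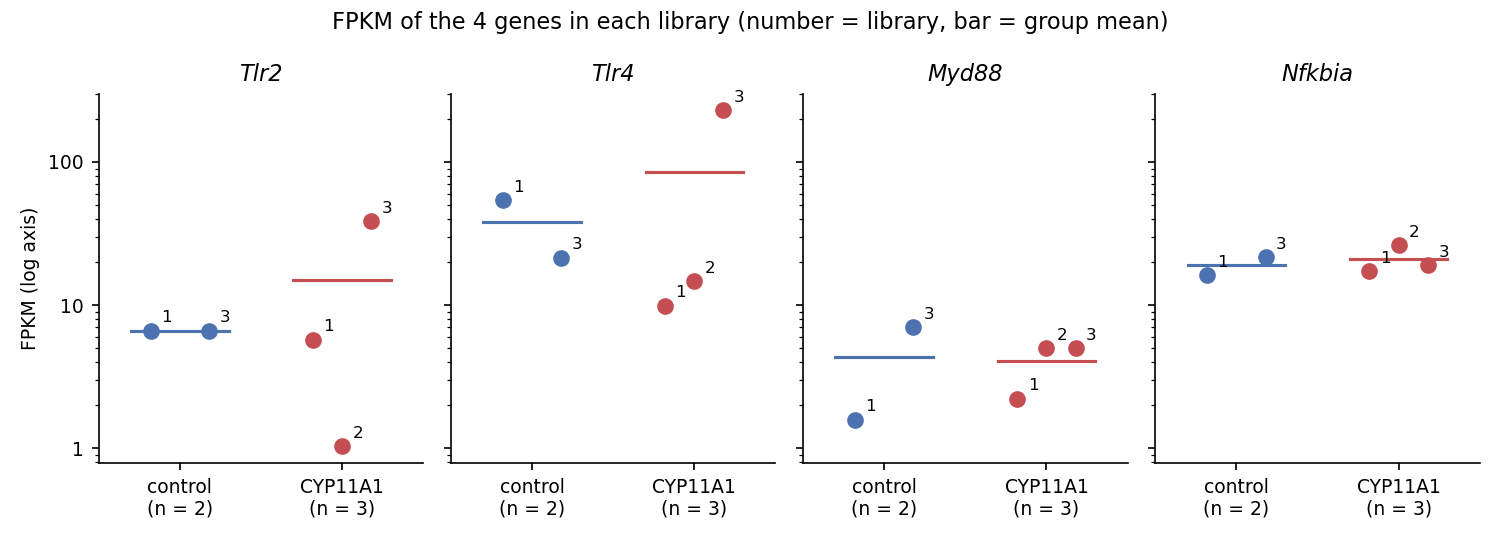
FPKM (log axis) of Tlr2, Tlr4, Myd88 and Nfkbia in the 2 control libraries (blue) and the 3 CYP11A1 libraries (red). Each point is 1 library with its number, and the bar is the group mean. Tlr2 (38.4) and Tlr4 (229.7) were highest in CYP11A1 3, while Nfkbia stayed between 16.1 and 26.2 in all 5 libraries.

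The adaptor Myd88 lay below Tlr4 in each library but above Tlr2 in CYP11A1 2, and had another order of libraries. In control 3 it did not differ from Tlr2 beyond counting error (166 and 165 counts). Its level was 1.58 FPKM in control 1 and 7.02 in control 3, so that the 2 controls were the lowest and the highest of all 5 libraries. In CYP11A1 1, 2 and 3 it was 2.21, 5.0 and 4.98 FPKM, all between the controls. The counts were 53 and 166 in the controls and 60, 129 and 162 in CYP11A1 1, 2 and 3. CYP11A1 2 and 3 were indistinguishable at this depth, with 12.3 CPM (Wilson interval 10.3 to 14.6) and 12.2 CPM (10.5 to 14.3). Control 1 and control 3 differed beyond counting error, with 3.89 CPM (2.97 to 5.09) and 17.2 CPM (14.8 to 20.1).

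The inhibitor Nfkbia was the steadiest of the 4 genes. Its level was 16.1 FPKM in control 1, 21.7 in control 3 and 17.2, 26.2 and 19.0 in CYP11A1 1, 2 and 3. The highest level was 1.63 times the lowest, and the groups overlapped. The counts lay between 298 and 431 in each library, and the Wilson intervals of control 1 (22.6 to 28.0 CPM) and CYP11A1 1 (24.1 to 30.2 CPM) overlapped. Counting error did not cover the whole spread, as the interval of CYP11A1 2 (37.3 to 45.1 CPM) lay above those of control 1, CYP11A1 1 and CYP11A1 3 (27.0 to 32.8 CPM), and that of control 3 (30.5 to 37.9 CPM) above that of control 1. The order of libraries depended on the scaling. With TMM factors, which correct for a few features taking many counts, CYP11A1 1 was the highest (43.9 CPM) and CYP11A1 3 the lowest (25.4 CPM), with factors of 0.615 and 1.17. CYP11A1 1 had the largest share of counts in its 10 most counted features.

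These spreads were set beside those of the other features. On the scale of TMM-scaled log2 CPM with a prior count of 2, the SD over the 5 libraries was 1.91 for Tlr2, 1.68 for Tlr4, 0.71 for Myd88 and 0.31 for Nfkbia. The median of the 4777 features that reached 10 counts in each of the 5 libraries was 0.85, and that of all 10346 features tested, many with few counts, was 1.27. Of the well counted features, 1.44% had a larger SD than Tlr2 and 3.35% a larger SD than Tlr4, while 4.35% had a smaller SD than Nfkbia. Over all features tested, 17.2% had a larger SD than Tlr2 and 27.5% a larger SD than Tlr4, so that the receptors stood near the end of the range among well counted features and less so among all, and 2.14% had a smaller SD than Nfkbia. Myd88 was nearer the middle of the well counted features, with 35.9% below it. Being highest in CYP11A1 3 was common, as 30.0% of the well counted and 21.4% of all features were, and 1.05% of the well counted features were highest there by at least the factor by which Tlr4 exceeded its next library (3.50-fold after TMM scaling). Control 1 and CYP11A1 3 were the 2 highest libraries in 26.5% of the well counted features and 15.9% of all, Tlr4 among them. These percentages are descriptions, since features are not independent and the members were not drawn at random.

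**Figure D2:**
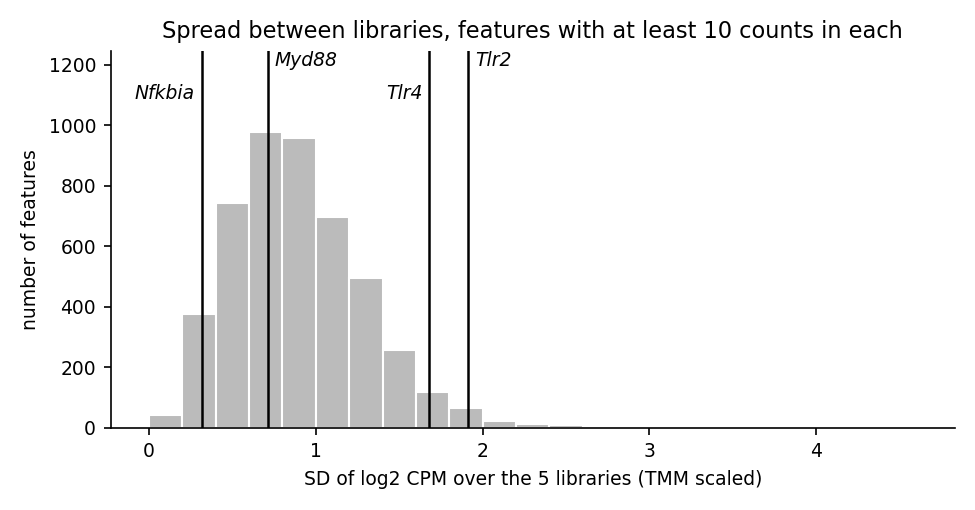
Number of features (vertical axis) by the SD of TMM-scaled log2 CPM over the 5 libraries (horizontal axis), for the 4777 features that reached 10 counts in each library. Vertical lines mark the 4 genes. Nfkbia (0.31) lies at the low end and Tlr4 (1.68) and Tlr2 (1.91) at the high end.

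The sequences before the start sites are shown for Tlr2 and Tlr4, the members that varied most between libraries, and for the steady Nfkbia. They are the 250 bases before each gene's start in RefSeq's GRCr8 assembly, on the strand of the gene, at chr2:171504558-171504807 (minus strand) for Tlr2, chr5:85160997-85161246 (plus strand) for Tlr4 and chr6:78597073-78597322 (minus strand) for Nfkbia. All 4 genes were matched to this table by symbol. The assembly used for the deposited counts is not given in the sources used here. For Tlr2 and Nfkbia the RefSeq gene span reaches upstream of the start used, so parts of these windows may lie within another transcript. Capitals mark matches on either strand to the NF-kappaB consensus in Tlr2 and Nfkbia, and to GAGGAA, a core bound by the myeloid factor PU.1, in Tlr4 (where it reads TTCCTC).
Tlr2: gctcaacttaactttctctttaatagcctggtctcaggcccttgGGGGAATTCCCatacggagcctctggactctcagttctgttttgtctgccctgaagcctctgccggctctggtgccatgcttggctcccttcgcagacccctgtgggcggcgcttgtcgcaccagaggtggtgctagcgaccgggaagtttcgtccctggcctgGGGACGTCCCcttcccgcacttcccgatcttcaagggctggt
Tlr4: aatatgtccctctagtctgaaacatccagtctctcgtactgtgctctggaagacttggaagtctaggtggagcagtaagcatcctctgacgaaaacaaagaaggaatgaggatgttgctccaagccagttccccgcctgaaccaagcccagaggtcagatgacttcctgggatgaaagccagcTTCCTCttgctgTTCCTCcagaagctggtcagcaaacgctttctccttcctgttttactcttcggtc
Nfkbia: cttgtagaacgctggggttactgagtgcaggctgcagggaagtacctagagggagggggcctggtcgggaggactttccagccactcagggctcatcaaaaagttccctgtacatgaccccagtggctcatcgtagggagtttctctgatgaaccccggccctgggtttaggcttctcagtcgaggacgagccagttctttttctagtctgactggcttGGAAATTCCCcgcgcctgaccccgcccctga

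The NF-kappaB consensus was matched at 2 places in the window of Tlr2, at 206 to 196 and at 42 to 33 bases before the start, where in the first stretch 2 matches overlap. It was matched at 1 place in that of Nfkbia, at 31 to 22 bases before the start. It was not matched in the windows of Tlr4 and Myd88. Of the 33469 windows of the same length in the table, 6.33% held a match. GAGGAA was matched in the window of Tlr4 only, at 67 to 62 and at 55 to 50 bases before the start, and 23.3% of all windows held it. A match is a stretch of letters, and binding was not measured here.

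Whether each of the 4 genes differed between offspring of CYP11A1 dams and of control dams was tested with edgeR's quasi-likelihood test, run on all features. None of the 4 genes passed: 0 of 4 had an adjusted p under 0.05, beside 0 of all 10346 features tested (0%), and 0 of 4 had an unadjusted p under 0.05, beside 441 features (4.26%). DESeq2 called 12 features at the adjusted and 608 at the unadjusted threshold, and none of the 4 genes had an adjusted p under 0.05 with it. All 4 genes had passed the filter on low counts. For Tlr2, the TMM-scaled level was 17.0 ± 1.14 CPM (SD, n = 2) in the controls and 37.1 ± 43.0 CPM (SD, n = 3) in the CYP11A1 group. The log2 fold change (CYP11A1 minus control) was 1.13 with an SE of 1.14 (95% interval -1.35 to 3.61, adjusted p = 1.0 by the edgeR test, Benjamini-Hochberg adjusted). For Tlr4, the levels were 127.3 ± 84.7 CPM (SD, n = 2) and 248.6 ± 352.4 CPM (SD, n = 3), and the log2 fold change was 0.97 with an SE of 1.11 (interval -1.45 to 3.39, adjusted p = 1.0 by the same test). In both receptors the SD within the CYP11A1 group exceeded its mean.

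Myd88 had 10.1 ± 8.64 CPM (SD, n = 2) in the controls and 9.45 ± 0.87 CPM (SD, n = 3) in the CYP11A1 group, with a log2 fold change of -0.085 and an SE of 0.90 (interval -2.04 to 1.87, adjusted p = 1.0 by edgeR's quasi-likelihood test). Here the wide spread lay in the controls. Nfkbia had 29.0 ± 4.23 CPM (SD, n = 2) and 33.2 ± 9.57 CPM (SD, n = 3), with a log2 fold change of 0.19 and an SE of 0.75 (interval -1.44 to 1.82, adjusted p = 1.0 by the same test). The median log2 fold change of all features tested was 0.15, so that Nfkbia lay close to it. These intervals do not show that the groups were alike. In simulated data that gave every feature the same spread, close to the common value of these libraries, the test called none of the changes put in. The spread of single genes differs from the common value, and that of Nfkbia was smaller, so the simulation does not carry over to each gene. For Nfkbia, the narrowest, the interval reaches from 2.71-fold lower to 3.54-fold higher in the CYP11A1 group, and its width reflects the spread edgeR assigns from all features (common coefficient of variation 1.05) as well as that of the gene itself.

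The groups overlapped in 4 of 4 genes on the TMM-scaled CPM, while they did not overlap in 14.4% of all features tested. The direction of each estimate turned when a single library was left out. For Tlr4 and Myd88 it also turned with limma on log2 FPKM, and for Tlr2 with log2(FPKM + 0.1). Without CYP11A1 3 the log2 fold change was -0.45 for Tlr2 and -1.48 for Tlr4, both then lower in the CYP11A1 group (edgeR's quasi-likelihood test, adjusted p = 1.0 for each). Without control 3 the estimate for Myd88 was 1.19, with a single control left that is assumed to vary as the other libraries do, and without CYP11A1 1 that for Nfkbia was -0.056. Without CYP11A1 3, the groups no longer overlapped in 2 of the 4 genes, beside 26.4% of all features tested in those 4 libraries. After TMM scaling these genes were Tlr4 (lower in the CYP11A1 group) and Nfkbia (higher). On FPKM Nfkbia still overlapped, with CYP11A1 1 (17.2) between control 1 (16.1) and control 3 (21.7). Myd88 alone did not overlap without control 1 (lower in the CYP11A1 group) or without control 3 (higher), beside 38.7% and 47.7% of all features. Tlr2 alone did not overlap without CYP11A1 2 (higher), beside 27.6%, and no member without CYP11A1 1, beside 24.3%. With control 1 and CYP11A1 3, the libraries with the fewest features, both left out, the log2 fold change was -0.33 for Tlr2 and -0.60 for Tlr4, and Tlr4 and Myd88 did not overlap (both lower in the CYP11A1 group), beside 58.2% of all features. The part of the low feature number in these levels was not tested.

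**Figure D3:**
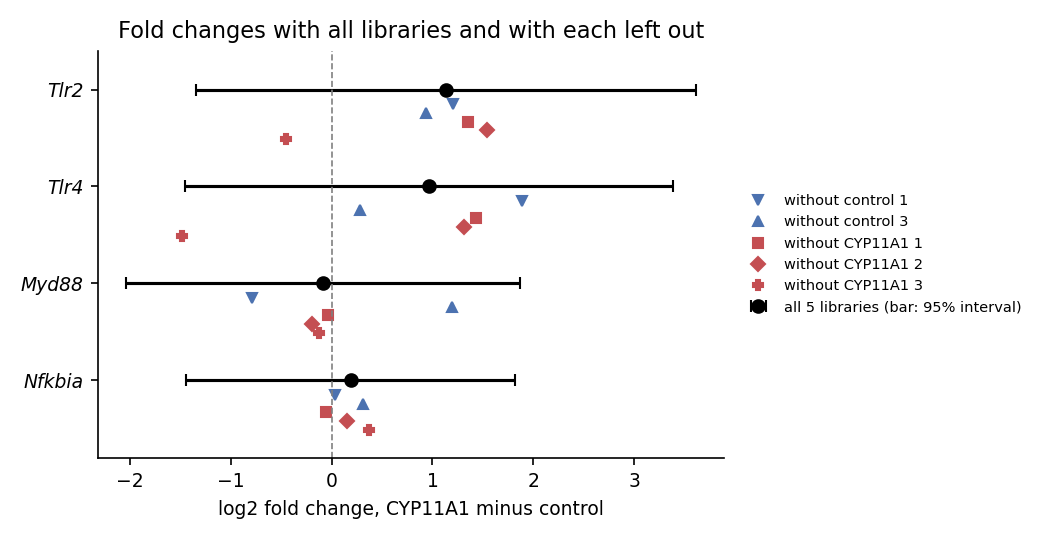
Log2 fold change (CYP11A1 minus control, horizontal axis) of the 4 genes. Black points are the estimates of edgeR's quasi-likelihood fit with all 5 libraries and bars their 95% intervals, and coloured symbols are the estimates with 1 library left out. All 4 intervals include 0, and Tlr2 and Tlr4 change sign without CYP11A1 3 (-0.45 and -1.48).

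Ratios between members within a library do not depend on how libraries are scaled to each other, and were compared next. Tlr4 was measured at 33.9 times the per-length level of Myd88 in control 1 and at 46.0 times in CYP11A1 3. In control 3, CYP11A1 1 and CYP11A1 2 the ratio was 3.05, 4.46 and 2.94. The libraries with the high ratios thus belonged to different groups, and they reached them by different levels. Control 1 had the lowest Myd88 (1.58 FPKM, 53 counts) with Tlr4 at 54.2 FPKM. CYP11A1 3 had the highest Tlr4 (229.7 FPKM) with Myd88 at 4.98 FPKM. Relative to Nfkbia, Tlr4 was at 3.36 in control 1 and 12.1 in CYP11A1 3, and at 0.986, 0.575 and 0.563 in control 3, CYP11A1 1 and CYP11A1 2. The receptor therefore exceeded the inhibitor per length in the 2 libraries with the fewest features detected and was close to it or below it in the other 3.

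The ratio of Tlr2 to Nfkbia was 0.412 and 0.305 in control 1 and 3, 0.333 in CYP11A1 1, 0.0399 in CYP11A1 2 and 2.02 in CYP11A1 3. CYP11A1 3 was the only library in which Tlr2 exceeded Nfkbia. The 2 receptors did not keep a fixed proportion, as Tlr2 was at 0.122 and 0.309 of Tlr4 in control 1 and 3 and at 0.578, 0.0708 and 0.167 in CYP11A1 1, 2 and 3. Myd88 was at 0.0992 to 0.324 of Nfkbia, the ratio that varied least (3.26-fold between libraries, against 8.17-fold to 50.6-fold in the other 5 pairs). The groups overlapped in each of the 6 pairs (two-sided exact permutation test, p = 1.0 in each, adjusted p = 1.0), and 0.2 is the smallest p that this test can give here. The mean log2 ratio of Tlr4 to Myd88, for example, was 3.35 ± 2.46 (SD, n = 2) in the controls and 3.08 ± 2.14 (SD, n = 3) in the CYP11A1 group.

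**Figure D4:**
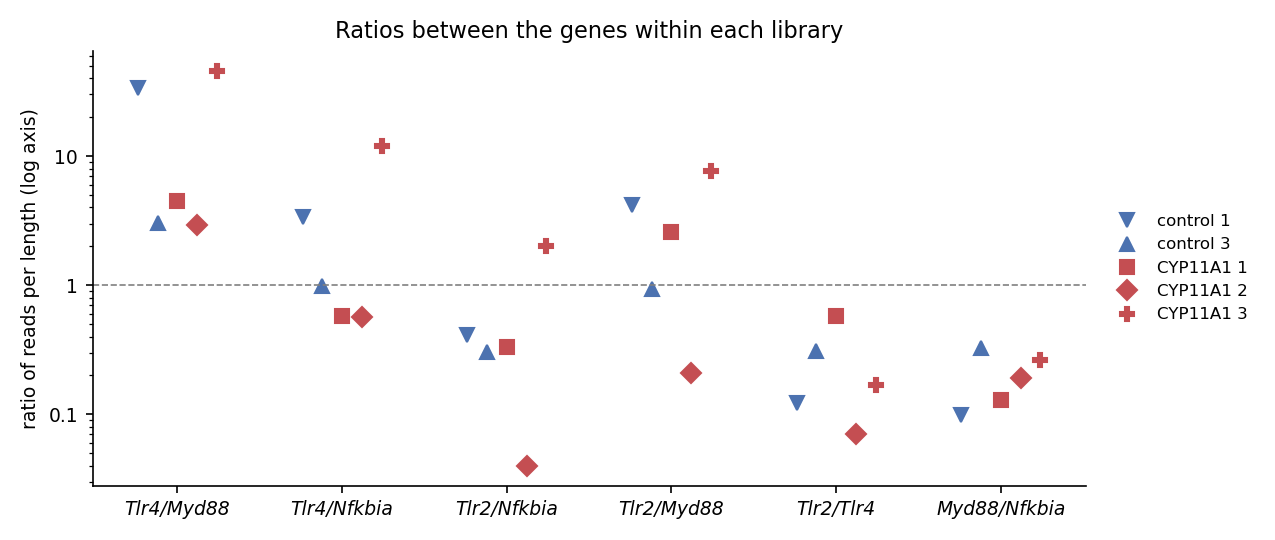
Ratio of reads per length (log axis) for the 6 pairs of genes within each library, with controls in blue and CYP11A1 libraries in red. The dashed line marks equal levels. Tlr4/Myd88 is highest in control 1 (33.9) and CYP11A1 3 (46.0), which belong to different groups.

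Likeness in pattern was measured as the root mean square difference, over the 5 libraries, of the TMM-scaled log2 CPM after each feature's mean was subtracted (0 for identical patterns). Tlr4 was at 1.03 from Tlr2, and 1.08% of the features tested were closer to Tlr2 than Tlr4 was, whereas 8.26% were closer to Tlr4 than Tlr2 was. Myd88 and Nfkbia were at 1.79 and 1.77 from Tlr2, at 1.74 and 1.70 from Tlr4, and at 0.62 from each other. On this measure the receptors were closer to each other than to the adaptor or the inhibitor. The measure depends on the size of the spread as well as on the order of libraries. A gene that varies little, such as Nfkbia, is far from both receptors whatever its order, so these distances alone do not show a shared pattern.

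The features most like Tlr2 were ENSRNOG00000008851 (0.32), ENSRNOG00000012944 (0.47) and ENSRNOG00000013014 (0.47), and the first of them had 37, 36, 38, 6 and 199 counts in control 1, control 3 and CYP11A1 1, 2 and 3. Those most like Tlr4 were ENSRNOG00000002069 (0.34), ENSRNOG00000020456 (0.36) and ENSRNOG00000012628 (0.37). The first had 2102 and 537 counts in the controls and 200, 569 and 6544 in CYP11A1 1, 2 and 3, so that it shared the high values of control 1 and CYP11A1 3. Those most like Myd88 were ENSRNOG00000010038 (0.11) and a pair of features without an Ensembl identifier (0.099 and 0.12). Those most like Nfkbia were ENSRNOG00000004681 (0.056), ENSRNOG00000031579 (0.080) and ENSRNOG00000031022 (0.085), and the first had between 2730 and 3589 counts in every library. With 5 libraries many features fit a given pattern closely, and no symbols were at hand for these.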

How the data were processed

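Microglial RNA was sequenced in 2 control and 3 CYP11A1 libraries. The authors deposited raw read counts per feature and FPKM. The submitters' processing notes name HISAT2 2.0.4 and HTSeq 0.9.1, and the genome build and strand setting are not given in the sources used here, so that reads of overlapping genes cannot be told apart. The methods name a low-input full-length cDNA kit and the labels a small RNA kit. The Wilson intervals cover the counting error of reads only, and as the libraries carry no molecular identifiers they may be too narrow.

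Features were tested with edgeR's quasi-likelihood test (edgeR 4.0.16, R 4.3.3; TMM, filterByExpr with a minimum count of 10, group only, Benjamini-Hochberg adjustment over all features). Tested on simulated data with known changes and the same spread for every feature, the fit recovered them at a low spread. It called none at a spread close to the common value measured here. The SE is the log2 fold change divided by the root of the F statistic. Ratios used counts plus 0.5, divided by the length recovered from the deposited FPKM. Alternatives were DESeq2 1.42.0, limma 3.58.1 on log2 FPKM, other scalings and filters, the replicate block and libraries left out. The deposited columns were matched by sample title, and no 2 columns were identical. Named features were the 4 members and the 3 most like each. The members were taken by name, but they, the lists and the tests were chosen with earlier results of these data known. Planned lists of pathway genes and markers were not run, as no table paired identifiers with symbols.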

Additional observations from a re-analysis of the deposited data

How the results depend on the processing

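Of 68 alternative estimates for the 4 genes, 54 kept the direction and 14 reversed, and none passed the adjusted threshold, which says nothing about stability at this spread. The directions held under RLE factors, library totals alone, TMM without the 10 most counted features, DESeq2, either count filter and the robust fit. Limma on log2(FPKM + 1), with or without a filter, gave Tlr2 a log2 fold change of 0.094, against 1.13 in the main fit. In the same fits the log2 fold change was -0.045 for Tlr4 and 0.10 for Myd88. With log2(FPKM + 0.1) it was -0.087 for Tlr2, -0.075 for Tlr4 and 0.18 for Myd88. With 1 library left out it ranged from -0.45 to 1.54 for Tlr2, from -1.48 to 1.89 for Tlr4, from -0.79 to 1.19 for Myd88 and from -0.056 to 0.37 for Nfkbia, and 0 to 2 of the 4 genes had groups that did not overlap (a count chosen after seeing the data), beside 24.3% to 47.7% of all features. Leaving out control 1 and CYP11A1 3 together, an alternative chosen after seeing the data, gave -0.33 for Tlr2, -0.60 for Tlr4 and 2 genes without overlap, beside 58.2% of all features. With the replicate block on libraries 1 and 3, Myd88 was at 0.097. Same-numbered libraries did not vary together (r = -0.21 across features), and the block gave 101 features at an unadjusted p under 0.05 and 0 at the adjusted threshold. The crossed pairing, chosen after seeing the data, gave 355 and 0.

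At the adjusted threshold of 0.05, DESeq2 called 12 of all features, edgeR without a filter 10, and the other fits 0. At an unadjusted p under 0.05 it was 763 without a filter, 164 with at least 10 counts in every library, 245 and 232 with limma at the larger and the smaller pseudocount after filtering, 245 without control 1 and CYP11A1 3, and 222 to 752 with 1 library left out. The number of features tested also differed, so these counts cannot be compared directly. It was 10346 in the main fit, 21072 without a filter and 4777 with at least 10 counts in every library. Limma after filtering tested 7652 features at either pseudocount, and the fit without control 1 and CYP11A1 3 tested 11910. Differences in log2 ratio between the groups, with 1 library left out (chosen after seeing the data), ranged from -0.84 to 0.68 for Tlr2/Tlr4, from -1.43 to 1.17 for Tlr2/Myd88, from -1.62 to 1.21 for Tlr2/Nfkbia, from -2.01 to 1.47 for Tlr4/Myd88, from -1.68 to 0.68 for Tlr4/Nfkbia and from -0.80 to 0.91 for Myd88/Nfkbia. The cause of these differences was not tested. Depth limits Tlr2 in CYP11A1 2 (28 counts) and Myd88 in control 1 (53 counts) most.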
